A study of Drosophila melanogaster with 12 samples.

Results

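The trypsin genes of Drosophila melanogaster described here are alphaTry, betaTry, epsilonTry, etaTry, thetaTry, iotaTry, zetaTry and lambdaTry. They were chosen by name, as the probe sets that the platform annotation assigns to 1 of these symbols and to no other gene, which gave 8 genes with 1 probe set each among 11981 named genes. Adult females of the laboratory strain w1118 were grown on standard cornmeal food until eclosion. They then spent 10 days at 25 °C on a holidic diet, a chemically defined synthetic food, which was either left unmodified or enriched with glucose at 100 g/L. RNA came from pools of 5 whole flies or of 10 dissected midguts. Each of the 4 groups (midgut unmodified, midgut glucose, whole fly unmodified and whole fly glucose) had 3 samples, measured on 12 single-colour Affymetrix arrays of the 3' expression type.

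Trypsins are serine endopeptidases that cut proteins after lysine and arginine. In insects they are made by midgut enterocytes as inactive zymogens with a signal peptide, released into the gut lumen and activated there, and they supply much of the cleavage that turns food protein into peptides. The Greek-letter trypsin genes of Drosophila are a tandem family, several of whose members are close copies of each other. All 8 lie within a stretch of 14 genes on chromosome arm 2R in the RefSeq annotation, counted from the first member to the last. Their order along the arm is lambdaTry, kappaTry, zetaTry, etaTry, thetaTry, alphaTry, epsilonTry and betaTry, followed by gammaTry, CG30031, CG30025, deltaTry, CG13202 and iotaTry. The genes gammaTry, CG30031, CG30025 and deltaTry were not analysed here, and whether probes of alphaTry, betaTry or epsilonTry also bind their transcripts was not tested.

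Signals are log2 probe set values as deposited. Fold changes and tests compare a gene only with itself, and a rank on an array or a difference between neighbouring genes is given as a description of probe signals, not of transcript amounts. Array medians were 3.43 to 3.47 in midgut and 4.04 to 4.15 in whole fly, and arrays of a group correlated at 0.9887 or more across 18769 probe sets. No label states whether replicates were raised as separate cultures, and p-values therefore cover the spread between these samples and no more. Exact permutation of 3 arrays against 3 gives no p below 0.1, so calls rest on limma, fitted across all probe sets, with a Benjamini-Hochberg adjusted p under 0.05. The dissected tissue carried midgut enterocyte markers, with a mean signal of 9.37 to 9.76 over the 3 measured of 5 (nub, GATAe and Smvt) against 4.99 to 6.62 in whole fly. Ovary markers (6 of 6 measured) had mean signals of 2.38 to 3.59 in the midgut arrays, apart from midgut glucose replicate 1 at 5.65, against 7.84 to 10.0 in whole fly. Of the 3 measured Malpighian tubule markers Irk3 and NaPi-T were called higher in midgut on each diet, and Best2 lower. On the unmodified diet 14.9% of all probe sets were called higher, and on glucose 11.8%. The tubule list means were 7.28 and 7.30 in midgut against 6.23 and 6.29 in whole fly. Whether the dissected tissue held tubule was not tested.

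Every one of the 8 trypsin genes was higher in midgut than in whole fly, on each diet. On the unmodified diet all 8 passed the test, where 14.9% of all probe sets were called higher, and the groups did not overlap for any of them, where 18.9% of all probe sets were higher without overlap. On glucose all 8 passed again, against 11.8% of all probe sets, and again without overlap, against 15.1%. Their median difference was 2.66 on the log2 scale on the unmodified diet and 2.04 on glucose, while the median over all probe sets was -0.14 and -0.17. Relative to that median the members stood 1.18 to 3.18 higher on the unmodified diet and 1.27 to 2.92 higher on glucose.

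The probe sets of alphaTry and betaTry sat near the top of the scale in midgut, where betaTry ranked 2 or 3 among all probe sets and alphaTry between 6 and 9, and the highest signal of any probe set was 14.12. Whether and how far this ceiling compresses their differences was not tested, so their tissue differences are not ranked against those of the other members. In midgut, alphaTry had a signal of 13.75 ± 0.02 (SD, n = 3) on the unmodified diet and 13.73 ± 0.02 on glucose, and in whole fly 12.55 ± 0.42 and 12.61 ± 0.14. Its measured midgut signal was 2.30-fold that of whole fly on the unmodified diet (log2 difference 1.20, SE 0.17, limma adjusted p 3.45e-05) and 2.18-fold on glucose. For betaTry the midgut signals were 13.92 ± 0.02 and 13.89 ± 0.05 and the whole fly signals 12.88 ± 0.34 and 12.80 ± 0.36, a difference of 1.04 (SE 0.18) on the unmodified diet and of 1.09 on glucose.

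The other 6 genes were 3.49-fold to 8.24-fold higher in midgut. On the unmodified diet etaTry had the largest measured tissue difference of these 6, 3.04 (SE 0.25, limma adjusted p 2.58e-07), followed by zetaTry at 2.99 (SE 0.25) and lambdaTry at 2.94 (SE 0.22). These 3 differ by less than their standard errors. On the same diet iotaTry stood 2.76 (SE 0.20) higher in midgut, thetaTry 2.55 (SE 0.24) and epsilonTry 2.33 (SE 0.25). On glucose thetaTry led with 2.75 (SE 0.24), and etaTry was the lowest of these 6 at 1.80 (SE 0.25), where the fold was 3.49. The tissue comparisons use the same arrays as the diet comparisons below, so the change in order between diets restates the diet differences and is not a further result.

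**Figure D1:**
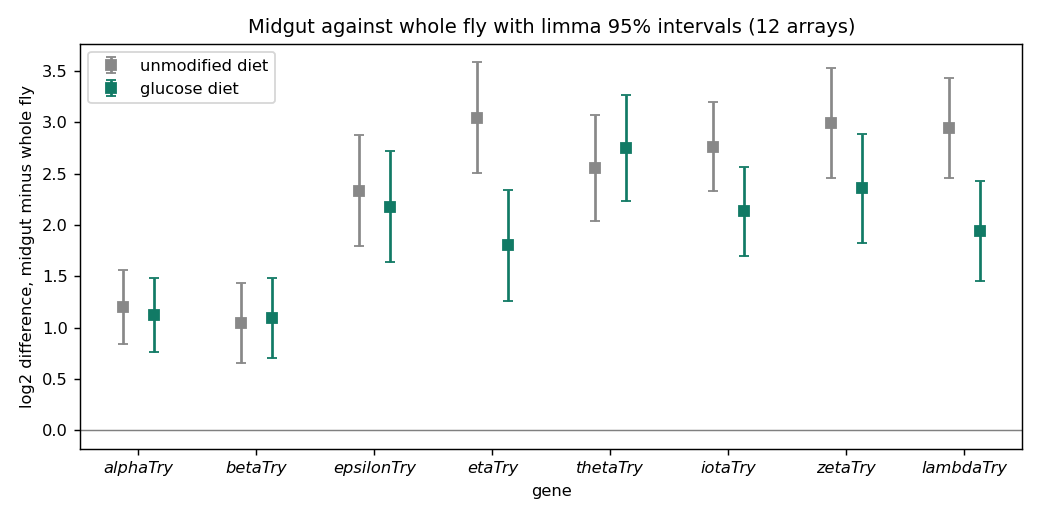
Log2 difference of midgut minus whole fly (y axis) for each trypsin gene (x axis) on the unmodified diet (grey) and on glucose (green), with limma 95% intervals from 12 arrays. All values lie above 0, between 1.04 for betaTry and 3.04 for etaTry on the unmodified diet and between 1.09 and 2.75 on glucose.

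The midgut comparison asked which trypsin genes differ in the gut itself after 10 days on glucose. No member passed the test, where 0.00533% of all probe sets (1 of 18769) were called. At an unadjusted limma p under 0.05 there were 4 members, iotaTry and zetaTry higher and etaTry and lambdaTry lower, where 6.2% of all probe sets reached that level. The median difference of the 8 members was -0.026, against 0.00071 over all probe sets, with members spread from -0.35 to 0.41. The diet groups did not overlap for 3 of 8 members, against 11.7% of all probe sets. Of these, 1 was higher on glucose and 2 were lower, where 6.36% of all probe sets were higher and 5.34% lower without overlap. Blocking on replicate number, which paired the midgut arrays, left no member past the threshold, where 0.128% of all probe sets passed.

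The members that stood higher on glucose in midgut were iotaTry, zetaTry and thetaTry. The signals of iotaTry were 9.60, 9.67 and 9.38 in unmodified replicates 1, 2 and 3 and 10.13, 9.98 and 9.75 in the glucose replicates. All 3 glucose arrays lay above all 3 unmodified arrays. The log2 difference was 0.41 (SE 0.13, 95% interval 0.10 to 0.71), or 1.33-fold, with a limma p of 0.0150 and an adjusted p of 0.721. This gene is the last of the stretch, with CG13202 between it and deltaTry.

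For zetaTry the unmodified arrays read 10.22, 10.35 and 9.87 and the glucose arrays 10.58, 10.69 and 10.31. The groups overlapped in replicate 3 on glucose, which lay just under unmodified replicate 2, but each glucose array exceeded the unmodified array of the same number, by 0.37, 0.35 and 0.44. The difference was 0.38 (SE 0.16, 95% interval 0.02 to 0.75), or 1.30-fold, with an adjusted p of 0.788 in limma. For thetaTry the unmodified arrays read 11.65, 11.49 and 11.31 and the glucose arrays 12.09, 11.95 and 11.41. The groups overlapped, though each glucose array exceeded the same-numbered unmodified array, by 0.44, 0.46 and 0.10. The difference of 0.33 (SE 0.18, 95% interval -0.09 to 0.76) had an unadjusted limma p of 0.108.

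The other 5 members had midgut differences below 0, and of these etaTry and lambdaTry stood lower without overlap. The signals of etaTry were 9.80, 9.88 and 10.0 on the unmodified diet and 9.56, 9.34 and 9.73 on glucose. All 3 glucose arrays lay below all 3 unmodified arrays, and the difference was -0.35 (SE 0.13, 95% interval -0.64 to -0.06), or 1.27-fold lower, with a limma p of 0.0250 and an adjusted p of 0.784. The signals of lambdaTry were 12.35, 12.37 and 12.45 on the unmodified diet and 12.16, 12.06 and 12.21 on glucose, again with no overlap. Its difference was -0.25 (SE 0.09, 95% interval -0.46 to -0.03), or 1.19-fold lower, with an adjusted p of 0.787 in limma. Both genes were lower on glucose in 3 of 3 same-numbered samples.

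For alphaTry, betaTry and epsilonTry the midgut differences were -0.022, -0.031 and -0.13. Their 95% intervals were -0.23 to 0.18, -0.24 to 0.18 and -0.47 to 0.20. On glucose alphaTry and epsilonTry were lower in 3 of 3 same-numbered samples and betaTry in 2 of 3, by at most 0.055 for alphaTry and betaTry, whose signals lay near the ceiling. The diet groups overlapped for all 3, and epsilonTry ranged from 12.77 to 13.24 on the unmodified diet and from 12.69 to 12.99 on glucose.

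Midgut glucose replicate 1, the array with the raised ovary markers, did not carry these differences alone. Without it the differences were 0.32 for iotaTry, 0.36 for zetaTry, 0.20 for thetaTry, -0.35 for etaTry and -0.26 for lambdaTry. Markers of other cell types also differed between the midgut groups, with none called by limma. Of the 4 fat body markers apolpp stood at -0.41 (SE 0.11), Lsp2 at -0.57 (SE 0.16) and FASN1 at 0.36 (SE 0.13), each with an unadjusted limma p under 0.05, and Fbp1 at -0.024. The fat body list mean was 7.41 to 7.54 on the unmodified diet and 7.21 to 7.49 on glucose. Of the 3 Malpighian tubule markers Irk3 stood at -0.48 (SE 0.19), while the other 2 stood higher on glucose, with a list median of 0.24. The tubule list mean was 7.15 to 7.38 on the unmodified diet and 6.95 to 7.67 on glucose. The enterocyte marker nub stood at -0.34 (SE 0.22), with GATAe at -0.10 and Smvt at 0.092. The part of these markers in the member differences was not tested.

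**Figure D2:**
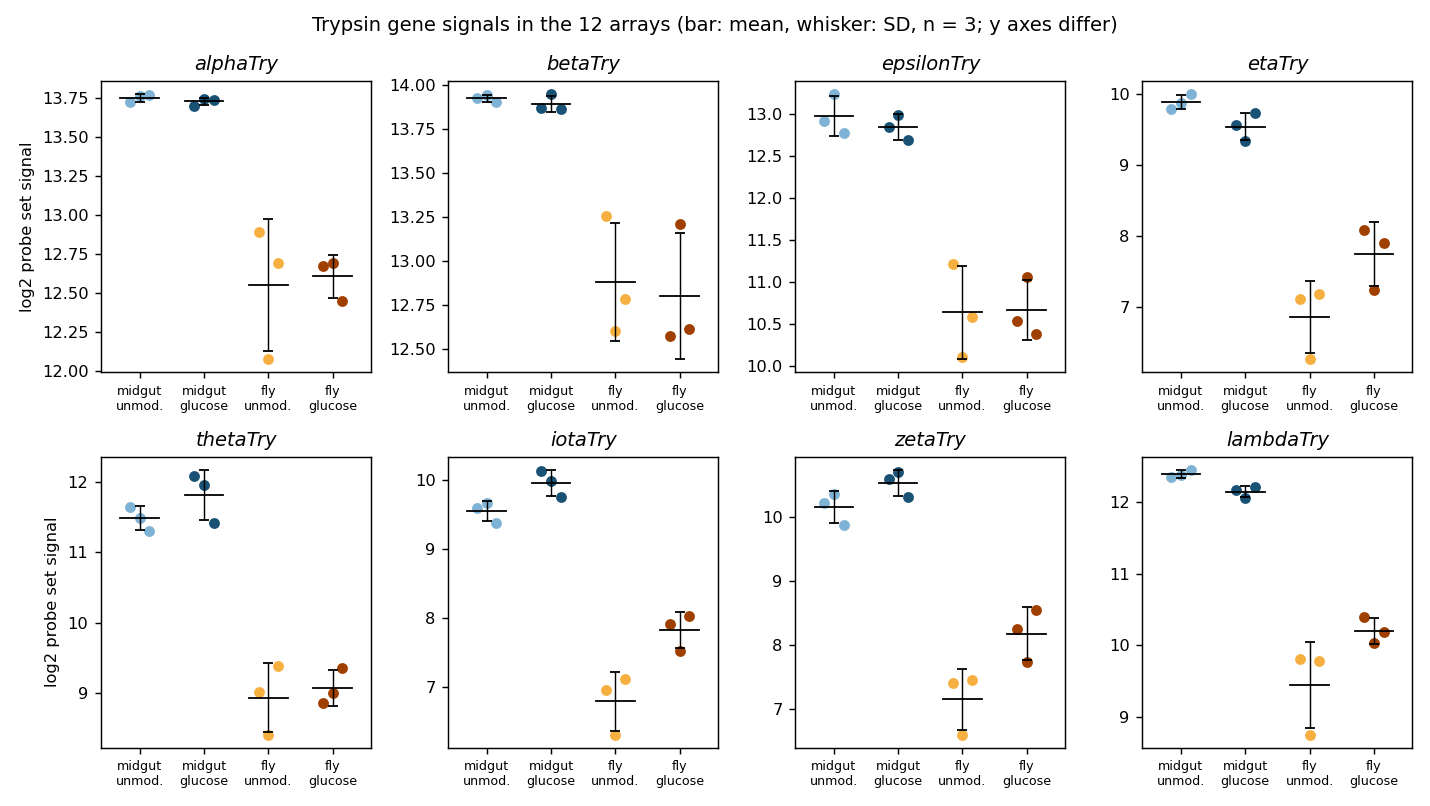
Log2 probe set signal (y axis, a separate scale for each gene) in the 3 arrays of each of the 4 groups (x axis), with the mean as a bar and the SD as a whisker. The midgut points of alphaTry and betaTry lie within 13.70 to 13.77 and 13.86 to 13.95, and in whole fly unmodified replicate 2 (the middle point) reads lowest of its group for all 8 genes.

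The whole fly comparison asked the same of RNA from the entire animal, in which fewer cells of a type and less RNA per cell cannot be told apart. No member passed at an adjusted p under 0.05, where 3.11% of all probe sets did. At an unadjusted limma p under 0.05 there were 4 members, all higher on glucose (iotaTry, zetaTry, etaTry and lambdaTry), where 21.4% of all probe sets reached that level and 9.41% did so in that direction. The same 4 of 8 genes were higher with no overlap between diets, against 11.6% of all probe sets. The median difference of the 8 members was 0.45, against -0.001 over all probe sets, with members between -0.081 and 1.03.

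In whole fly iotaTry had signals of 6.95, 6.31 and 7.11 on the unmodified diet and 7.91, 7.52 and 8.03 on glucose. All glucose arrays were higher, and the difference was 1.03 (SE 0.22, 95% interval 0.52 to 1.55), or 2.05-fold, with a limma adjusted p of 0.0519, just above the threshold. Over the alternatives of processing its adjusted p ranged from 0.0160 to 0.173 in limma, and it lay under the threshold in each of the 6 that left out no array. For zetaTry the arrays read 7.40, 6.60 and 7.45 on the unmodified diet and 8.25, 7.73 and 8.54 on glucose, a difference of 1.02 (SE 0.27, adjusted p 0.0802 in limma) or 2.03-fold. These 2 genes thus stood higher on glucose in whole fly as well as in midgut.

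The genes etaTry and lambdaTry, which stood lower on glucose in midgut, stood higher in whole fly. The whole fly signals of etaTry were 7.11, 6.27 and 7.18 on the unmodified diet and 8.09, 7.24 and 7.91 on glucose. The groups were separated by a narrow margin, and the difference was 0.89 (SE 0.29, limma adjusted p 0.124), or 1.86-fold. The signals of lambdaTry were 9.81, 8.75 and 9.77 on the unmodified diet and 10.39, 10.03 and 10.18 on glucose. Its difference was 0.76 (SE 0.27, limma adjusted p 0.157), or 1.69-fold.

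The other 4 genes had overlapping diet groups in whole fly. Their differences were 0.14 (SE 0.24) for thetaTry, 0.053 (SE 0.20) for alphaTry, 0.024 (SE 0.28) for epsilonTry and -0.081 (SE 0.22) for betaTry. The 95% interval of thetaTry was -0.42 to 0.70 and that of betaTry -0.59 to 0.43.

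The whole fly values leaned on single arrays. Unmodified replicate 2 had the lowest signal of its group for 8 of 8 members, and the mean of the enterocyte markers was also lowest there, at 4.99 against 5.89 and 5.90. The same array was lowest of its group for muscle (8.97 against 9.40 and 9.43), Malpighian tubule (5.87 against 6.51 and 6.32) and fat body markers (9.12 against 9.59 and 9.38), and highest for the ovary (10.0) and neuron markers (6.09 against 5.87 and 5.74). Without it the differences were 0.79 for iotaTry, 0.75 for zetaTry, 0.60 for etaTry and 0.41 for lambdaTry. Without glucose replicate 2, which read lowest among the glucose arrays for these 4 genes, iotaTry, zetaTry and etaTry passed, with differences of 1.18, 1.24 and 1.15 and limma adjusted p-values of 0.0306, 0.0363 and 0.0486, in a fit that called 8.33% of all probe sets.

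Marker lists differed between the diets in the same whole fly arrays. All 3 measured enterocyte markers stood higher on glucose in whole fly, nub by 0.98 (SE 0.30), Smvt by 0.87 (SE 0.56) and GATAe by 0.26 (SE 0.22), and none was called by limma. Their mean over the list was 4.99 to 5.90 on the unmodified diet and 5.92 to 6.62 on glucose. The 3 measured muscle markers of 6 stood 0.48 to 0.84 higher, and 1 of them, the troponin gene up, was called at an adjusted p of 0.0476. All 6 ovary markers stood lower, 2 of them called (orb and Marf1), with a list mean of 9.54 to 10.0 on the unmodified diet and 7.84 to 9.31 on glucose. Medians of the measured markers of Malpighian tubule (3 of 4), fat body (4 of 4) and neurons (3 of 4) were 0.040, 0.056 and 0.26, with none called. Among them the larval serum protein gene Lsp2 stood at -2.48 (SE 0.55, limma adjusted p 0.0540), and the fat body list mean was 9.12 to 9.59 on the unmodified diet and 8.55 to 9.09 on glucose. Of the neuron markers nSyb stood at 0.54 (SE 0.12) and brp at -0.31 (SE 0.15). The part of these shifts in the trypsin values was not tested.

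**Figure D3:**
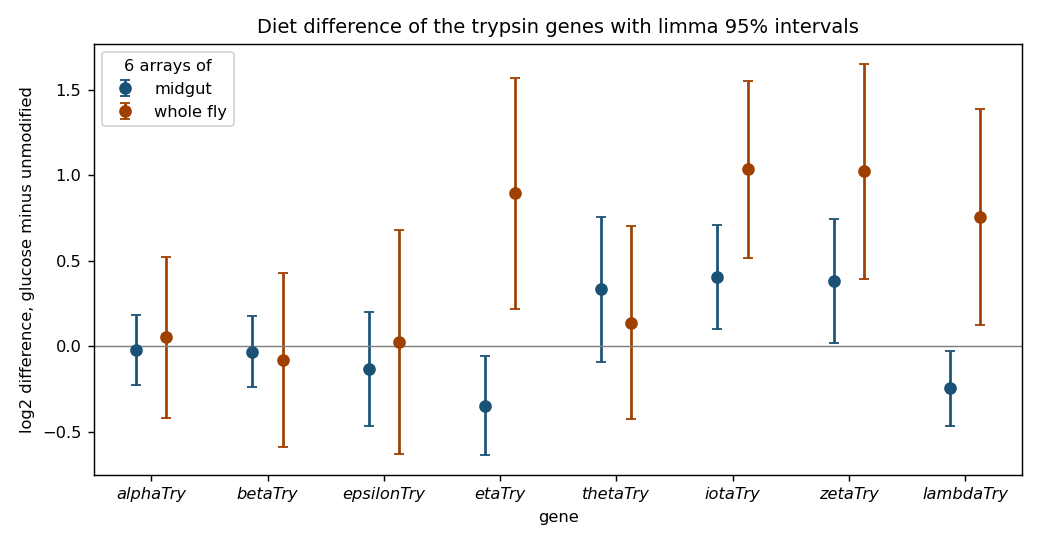
Log2 difference of glucose minus unmodified (y axis) for each trypsin gene (x axis) in midgut (blue) and whole fly (brown), with limma 95% intervals from 6 arrays each. The intervals of iotaTry and zetaTry lie above 0 in both tissues, while those of etaTry and lambdaTry lie below 0 in midgut and above 0 in whole fly.

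The difference between the diet effects was tested as an interaction over the 12 arrays. No member passed, where 0.0426% of all probe sets did, and 3 of 8 members had an unadjusted limma p under 0.05, all with the lower effect in midgut, against 6.28% of all probe sets in that direction. With the replicate number as a block 4 members passed, etaTry, lambdaTry, zetaTry and iotaTry, with limma adjusted p-values of 0.0185 to 0.0498, against 3.99% of all probe sets, although only the midgut samples met the check for pairing. For etaTry the midgut effect was 1.24 (SE 0.35) below the whole fly effect on the log2 scale (95% interval of the difference -2.005 to -0.478, limma adjusted p 0.146). For lambdaTry the difference was -1.002 (SE 0.32, 95% interval -1.69 to -0.31, limma adjusted p 0.170), and for iotaTry it was -0.63 (SE 0.28, unadjusted limma p 0.0453). For zetaTry it was -0.64 (SE 0.35) with an unadjusted limma p of 0.0906. The intervals of alphaTry, betaTry, epsilonTry and thetaTry all included 0, and the widest ran from -0.92 to 0.61 for epsilonTry. Marker lists differed in the same comparison. The enterocyte marker nub stood 0.34 lower on glucose in midgut, with overlap, and 0.98 higher in whole fly, a difference of -1.32 (SE 0.41, limma adjusted p 0.166, or 0.0425 with the block). All 3 enterocyte markers and all 3 muscle markers had differences below 0, and all 6 ovary markers had differences above 0. Their part in the member values was not tested.

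The order of the 4 groups differed between members. For iotaTry and zetaTry it was whole fly unmodified, whole fly glucose, midgut unmodified and midgut glucose from low to high, and the array values of neighbouring groups overlapped only for zetaTry in midgut. For etaTry and lambdaTry the midgut groups were in the opposite order, with midgut unmodified the highest, and no neighbouring groups overlapped. For alphaTry, betaTry, epsilonTry and thetaTry the diets overlapped within each tissue, which gives no order of the diets. An overlap is not evidence that the diets were alike, least of all for alphaTry and betaTry near the ceiling. The highest group of thetaTry by its mean was midgut glucose, at 11.82 ± 0.36 (SD, n = 3).

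Position in the gene stretch did not sort the midgut differences by sign. Next to each other are zetaTry, higher on glucose, and etaTry, lower on glucose. The signal of zetaTry minus that of etaTry within an array was 0.42, 0.47 and -0.14 in the unmodified midgut arrays and 1.02, 1.35 and 0.57 in the glucose midgut arrays, so the ratio of these neighbours was higher in all 3 glucose arrays. In whole fly the same quantity was 0.27 to 0.33 on the unmodified diet and 0.16 to 0.63 on glucose, with overlap. This pair was chosen after its values were seen, so the ratio has no test. The flanking gene kappaTry, which is no member, stood 0.19 lower (SE 0.10) on glucose in midgut at an unadjusted limma p of 0.0795, and 0.83 higher (SE 0.25) in whole fly at an adjusted p of 0.109. Its diet groups did not overlap in either tissue. The midgut effect of kappaTry minus its whole fly effect was -1.02 (SE 0.29, limma adjusted p 0.150), so this pattern was not limited to etaTry and lambdaTry.

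**Figure D4:**
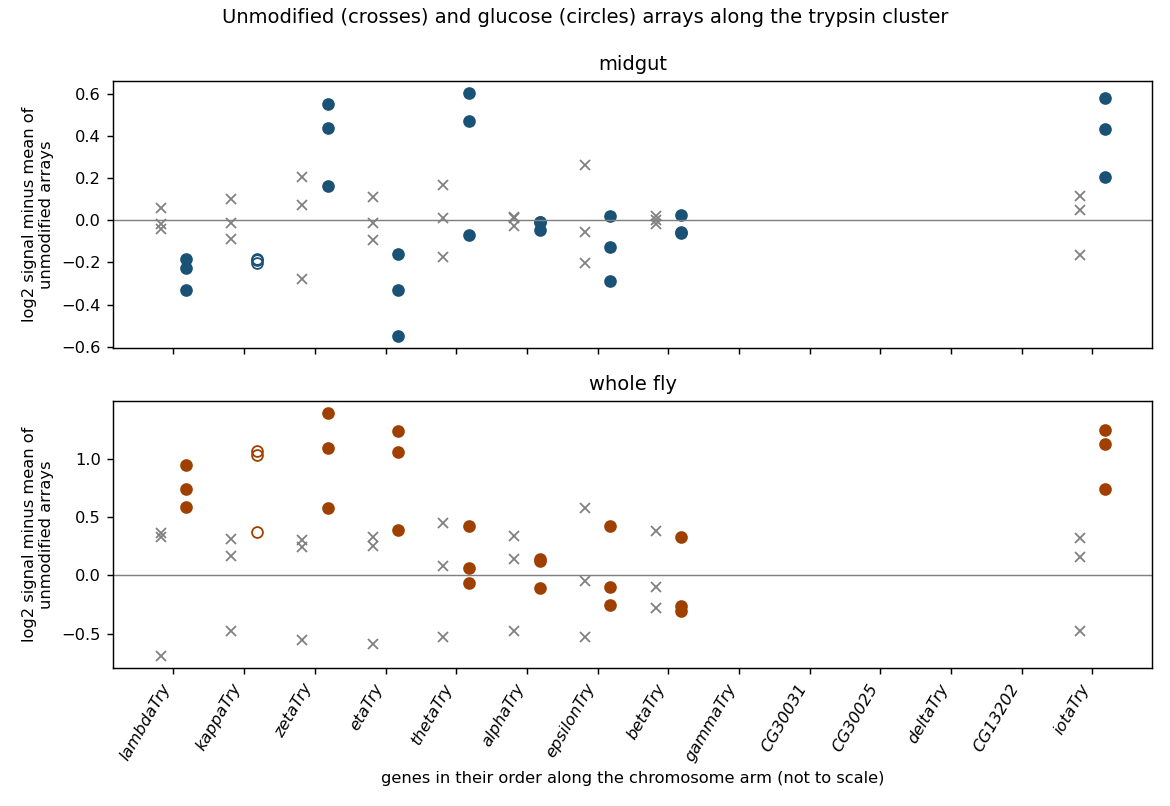
Log2 signal of each array minus the mean of the 3 unmodified arrays of that tissue (y axis) for genes in their order along the chromosome arm (x axis, not to scale), in midgut (top) and whole fly (bottom). Crosses are unmodified arrays, filled circles are glucose arrays of the 8 members, and open circles are kappaTry. Gaps are genes that were not analysed here. All midgut circles lie above 0 for zetaTry and iotaTry, below 0 for lambdaTry, kappaTry and etaTry, and just below 0 for alphaTry.

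The genes whose pattern was most like that of each member were listed by Pearson's r over the 12 arrays, after the mean of each tissue was subtracted. The values are descriptive, since the arrays share groups and the best of all named probe sets were taken. Member signals mostly spread more between whole fly arrays than between midgut arrays, so whole fly weighs more in r. A match need not hold in both tissues. For etaTry and iotaTry r was 0.72 over the 12 arrays, but -0.87 in midgut and 0.96 in whole fly. The closest pair within the family was iotaTry and zetaTry, each the other's best match at an r of 0.98. Their r was 0.93 in midgut and 0.99 in whole fly. For etaTry the best matches were CG44251 at 0.98 and kappaTry at 0.97. For lambdaTry they were CG17475 and CG31267, genes of the serine protease family, at 0.97 each. For epsilonTry they were dpr12 at 0.96 and the Jonah protease gene Jon74E at 0.92, and for betaTry CR46300 at 0.95 and the maltase gene Mal-A1 at 0.91. The matches of alphaTry were CG3625 at 0.96 and VhaSFD, a subunit of the vacuolar proton pump, at 0.91. The second matches of zetaTry and iotaTry were Gs2, a glutamine synthetase gene, at 0.97 and CG6225 at 0.96. The matches of thetaTry were the weakest, CG31259 at 0.90 and babos at 0.86.

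Other protein-digesting enzymes served as the setting for the trypsins. In midgut on glucose no gene of any of these lists passed limma's test over all probe sets. The list of other trypsin genes held 10 symbols, of which gammaTry and CG30028 name the same gene, and 5 genes were measured. Their median was -0.18, with 1 gene higher and 4 lower and Ser8 at -1.41 (SE 0.49, unadjusted limma p 0.0206). That median was the value of Try29F, whose mean midgut signals were 4.47 and 4.29, and those of Ser12 were 3.08 and 3.23. The Jonah and other chymotrypsin-type protease genes, which encode enzymes cutting after other residues, had a median of -0.14 over 15 of 18. Of their differences 14 of 15 were below 0, where 50.2% of all probe sets had differences above 0. Among the 14, Jon65Aiii and yip7 stood at -0.011 each and Jon74E at -0.017, with unmodified midgut means of 13.80, 13.85 and 13.33. In that list 4 genes had an unadjusted limma p under 0.05, all lower, against 2.73% of all probe sets in that direction. Of them Jon66Cii, at -1.02 (SE 0.11, limma adjusted p 0.0750), passed when the replicate number was a block, at an adjusted p of 0.0377. Zinc carboxypeptidases, which trim peptides from the carboxyl end, had a median of -0.045 over 11 of 11, and 2 higher and 1 lower gene reached an unadjusted limma p under 0.05, against 6.2% of all probe sets. Of the higher genes CG4017 was dim, at mean signals of 3.12 and 3.41. In the same list CG8563, CG3108 and CG8945 were dim too, at mean midgut signals of 2.31 to 2.93. Pepsin-like aspartic proteases had a median of -0.00084 over 8 of 9, and none reached it.

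In whole fly these lists again held no called gene. Medians were 0.51 for the other trypsin genes, 0.080 for the Jonah list, 0.27 for the carboxypeptidases and -0.12 for the pepsin-like proteases, beside 0.45 for the members. An unadjusted limma p under 0.05 was reached by 2 of 5, 1 of 15, 1 of 11 and 2 of 8 genes of these lists, in that order, against 21.4% of all probe sets. They were kappaTry and CG17571 (0.51, SE 0.18) among the other trypsin genes, both higher, and 1 lower gene in the Jonah list, Jon25Bi at -0.79 (SE 0.32). The carboxypeptidase gene CG3097 was also higher, at 0.39 (SE 0.10), and of the pepsin-like genes cathD was higher at 0.33 (SE 0.11) and CG31661 lower at -1.36 (SE 0.47). In the tissue comparison on the unmodified diet, 4 of 5 other trypsin genes, 15 of 15 Jonah-list genes, 6 of 11 carboxypeptidases and 3 of 8 pepsin-like genes were called higher in midgut, against 14.9% of all probe sets. Called lower in midgut were 1 carboxypeptidase, CG3097 at -0.44, and 2 pepsin-like genes, CG31661 at -3.80 and CG31928 at -3.03. The pepsin-like genes called higher were Bace at 1.46, CG33128 at 0.44 and cathD at 0.27. The median of that list was -0.13, beside -0.14 over all probe sets.

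Regulators known from earlier work to act on digestive enzyme genes were read in the same arrays. They include the sugar sensor partner bigmax, the sugar response factor sug, the activin ligand daw and its receptor babo. In midgut none of the 8 passed, while sug at 0.70 (SE 0.22) and bigmax at 0.38 (SE 0.15) had an unadjusted limma p under 0.05 and daw stood at 0.37 (SE 0.17). In whole fly 3 of the 8 passed, sug and bigmax higher and babo lower, against 3.11% of all probe sets. The difference of babo was -0.83 (SE 0.14), with an adjusted p of 0.0371 in limma. The ligand gene daw stood at 0.94 (SE 0.30) with an adjusted p of 0.121 in limma. When any 1 whole fly array other than glucose replicate 2 was left out, 0 to 2 of all probe sets were called.

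**Figure D5:**
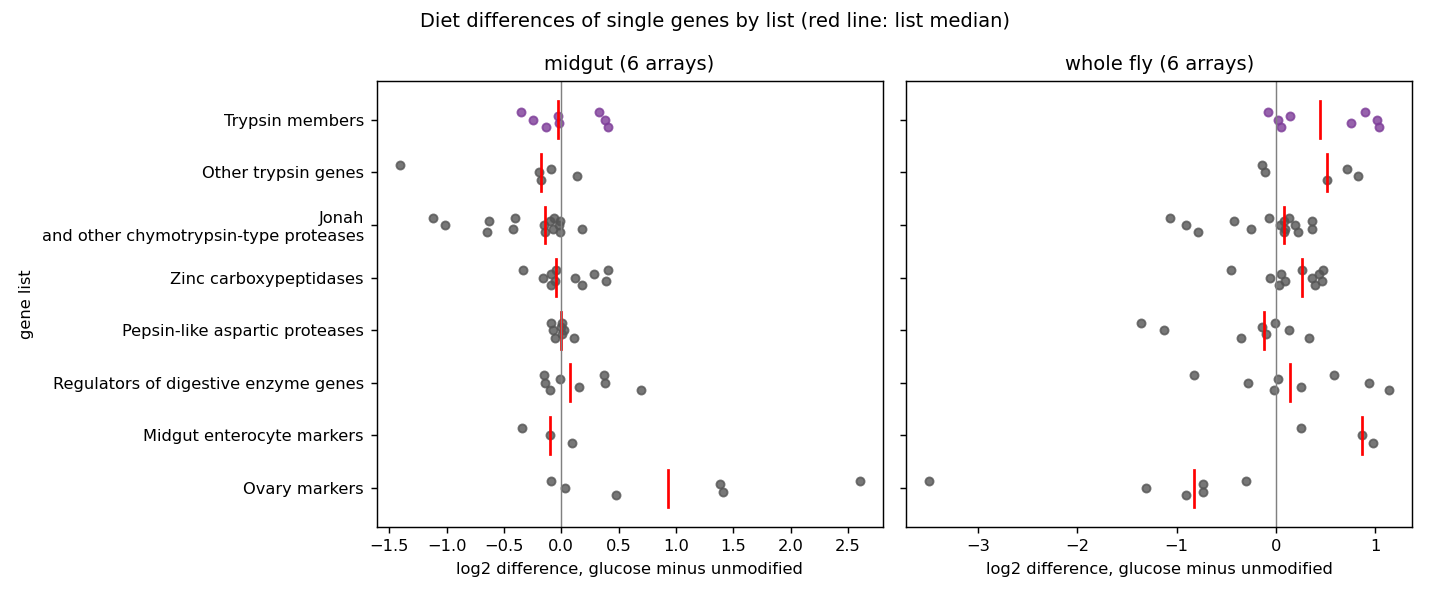
Log2 difference of glucose minus unmodified (x axis) for single genes of 8 lists (y axis) in midgut (left) and whole fly (right), 1 point per measured gene, with the list median in red. The trypsin members (purple) lie between -0.35 and 0.41 in midgut with a median of -0.026, and between -0.081 and 1.03 in whole fly with a median of 0.45.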

How the data were processed

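The members and lists were chosen with earlier results of these data known. The authors deposited 1 log2 signal per probe set and array, made with Affymetrix Expression Console per the submitters' processing notes. Its version and summarisation, and whether both tissues went through 1 normalization, were not given in the sources used here. Of 18952 probe sets 183 Affymetrix controls were left out. No gene identifier of the 8 members failed to match RefSeq (GCF_000001215.4), used for names and gene order only.

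Fits used limma 3.58.1 in R 4.3.3 (lmFit, eBayes, two-sided), on 6 arrays for each diet comparison and on 12 for the rest, and were tested on simulated data. Named genes were the members, the 2 most similar patterns per member and up to 4 genes per list with the smallest p in a comparison, and markers were named beside results they bear on, after their values were seen. Of 402 probe sets with several genes and 4720 with none, none was named. At most 0.021% of values were identical between arrays of a group, so none was counted as a duplicate. Deviations of same-numbered samples correlated at 0.39, 0.31 and 0.36 in midgut, a pairing read from the data and not stated by the labels. Printed errors and p-values come from fits without the block unless the block is named. Alternatives were a filter on dim probe sets, eBayes with trend, centring, quantile normalization, the block, shared fits and leaving out arrays. The number of arrays limits the precision.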

Additional observations from a re-analysis of the deposited data

Results flagged for a closer look

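The measured diet differences of etaTry, neither of them called, had opposite signs in the tissues: all 3 glucose arrays lay below all unmodified arrays in midgut and above them in whole fly. The midgut effect minus the whole fly effect was -1.24 (SE 0.35), with a limma adjusted p of 0.146 for that difference, and over the fits that left out 1 array it ranged from -1.49 to -0.95. The same held for lambdaTry, at -1.002 (SE 0.32), with a limma adjusted p of 0.170 and a range of -1.18 to -0.66. The enterocyte marker nub had differences of -0.34 in midgut, where its groups overlapped, and 0.98 in whole fly, and its midgut effect minus its whole fly effect was -1.32 (SE 0.41). Of the 5 measured other trypsin genes 4 also had differences below 0, among them kappaTry at -1.02 (SE 0.29, limma adjusted p 0.150). None of the differences named here passed the test over all probe sets. Both members were flagged because their diet groups separated in opposite directions, so that separation is the rule and not a further result. The share of all probe sets that meet this rule was not computed.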

How the results depend on the processing

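The count of 8 members higher in midgut than in whole fly held on both diets under each alternative run, and the count of 0 called members in the midgut diet comparison likewise, including the replicate block. In whole fly 1 member, iotaTry, was called after removal of the dimmest 40% of probe sets, with trend and robust prior, with median centring and with quantile normalization. There 2 were called with all 12 arrays in 1 fit, 3 with the replicate block (against 9.12% of all probe sets) and 0 to 3 when 1 array was left out. For the difference of diet effects 4 were called with the replicate block (against 3.99% of all probe sets) and 0 to 1 when 1 array was left out. Counts for these 2 comparisons that stand without a share of all probe sets are not read as results about the members. Same-numbered whole fly samples correlated at 0.20, 0.31 and -0.0085, and not every sample correlated best with its own number, so those numbers were not taken as pairs. The block changed no other call of a member.

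Of 232 member values under alternatives with all arrays, 4 changed sign, each near 0: alphaTry in midgut to 0.042 and in the difference of diet effects to 0.032 with quantile normalization, and epsilonTry in whole fly to -0.025 with centring and -0.060 with quantile normalization. Leaving out 1 array changed the sign in 16 of 288 fits. In whole fly these were alphaTry (-0.18 to 0.22), betaTry (-0.29 to 0.11), epsilonTry (-0.24 to 0.31) and thetaTry (-0.12 to 0.36). In the difference of effects they were alphaTry (-0.24 to 0.16), betaTry (-0.14 to 0.26), epsilonTry (-0.44 to 0.11) and thetaTry (-0.028 to 0.46). The cause was not tested.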
